A study of Mus musculus with 58 samples.

Results

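A set of 10 genes of antioxidant defence and redox control are described here across all RNA-seq libraries of hematopoietic stem cells (HSCs) in a study of caloric restriction (CR) in mice. They were taken as a fixed list of symbols, Nfe2l2, Nqo1, Hmox1, Gclm, Gclc, Prdx1, Sod1, Sod2, Cat and Txnip. All 10 are among the 55376 genes of each count table, and all 10 passed the filter on low counts in every comparison. HSCs were sorted as Lin-Sca-1+c-Kit+CD34-Flk2-CD150+ cells from the bone marrow of male C57BL/6 mice labelled wild type. Old mice of 24 to 26 months had free access to food (OAL, n = 4 libraries), lived under lifelong 40% CR (OCR, n = 4), or were refed for 4 weeks after lifelong CR (OCRRF, n = 2). Young mice of 3 to 4 months were fed freely (YAL, n = 4), put on CR for 4 weeks with 20% restriction in the first week and 40% for the other 3 (YCR, n = 4), or refed after it (YCRRF, n = 4). In a second experiment, HSCs of aged mice received lentiviral shRNA overnight and were transplanted with helper progenitors into lethally irradiated young female recipients. These donor cells were sorted again from the recipients by CD48 and CD150, and not by CD34 and Flk2. They carried a GFP-labelled scramble shRNA (n = 2), a Kdr shRNA (n = 4), scramble shRNAs in both the GFP and mCherry vectors (n = 2), or Kdr and Bmpr1a shRNAs together (n = 4). Kdr encodes the VEGF receptor KDR, Bmpr1a a BMP receptor, and the Bmpr1a knockdown used 2 shRNAs in 2 libraries each. The labels do not say which libraries came from separate mice, so p-values measure the spread between libraries, which may be technical.

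Cells keep reactive oxygen species low through several linked enzyme systems. Superoxide dismutases turn superoxide into hydrogen peroxide, which catalase, peroxiredoxins and glutathione peroxidases remove. Nrf2, encoded by Nfe2l2, is the transcription factor that raises many of these enzymes under oxidative stress by binding antioxidant response elements, and it is held back by KEAP1. TXNIP binds and inhibits thioredoxin, limits glucose uptake, and its gene is known to be induced by the glucose sensors MondoA and ChREBP at carbohydrate response elements. Quiescent HSCs are known for low levels of reactive oxygen species and for their need of FOXO factors to keep them low.

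The 2 promoters of the genes that changed in OCR HSCs are printed below, because chromatin values follow for the first and a motif match for the second. Each is the 250 bases before the RefSeq start of transcription on mm10, in the direction of the gene. Txnip lies on the plus strand at chr3:96557707-96557956 for these bases, and Gclm on the plus strand at chr3:122245307-122245556. In Txnip, capitals mark the forkhead motif GTAAACA and a pair of CACGAG repeats that are 5 bases apart, an arrangement like that of a carbohydrate response element. In Gclm, capitals mark the core of the antioxidant response element, TGACNNNGC, read here on the minus strand.
Txnip: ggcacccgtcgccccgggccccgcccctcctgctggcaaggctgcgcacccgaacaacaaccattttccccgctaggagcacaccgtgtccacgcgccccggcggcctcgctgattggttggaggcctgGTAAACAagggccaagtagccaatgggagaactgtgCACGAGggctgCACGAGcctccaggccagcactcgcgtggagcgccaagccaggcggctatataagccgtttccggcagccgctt
Gclm: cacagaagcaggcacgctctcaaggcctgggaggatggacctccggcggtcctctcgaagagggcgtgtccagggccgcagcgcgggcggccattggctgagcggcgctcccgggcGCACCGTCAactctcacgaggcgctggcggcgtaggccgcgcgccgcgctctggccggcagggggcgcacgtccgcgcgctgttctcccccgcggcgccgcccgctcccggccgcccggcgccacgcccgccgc
The RefSeq promoter table held 8 of the 10 genes, and Hmox1 and Gclc were not matched. Over the 300 bases around the start, 250 before and 50 after, and on both strands, the antioxidant core was in 12.4% of 32817 promoters and in 4 of the 8, Nfe2l2, Gclm, Prdx1 and Sod1. GTAAACA was in 3.65% of these promoters and, of the 8, in Txnip alone, starting at base -121. The E-box CACGTG was in 7.15% of promoters and in 0 of the 8. The paired CACGAG repeats, whose letters were searched for after the Txnip promoter had been read, started at base -85 of Txnip. The 1 promoter of 32817 that held this exact pair was that of Txnip itself. Its match was fixed by the choice of letters, so the count gives no measure of how rare such elements are. These matches describe letters and were not tested as binding sites.

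The diet libraries held 11102898 to 36579392 counts on genes and those of transplanted cells 35657999 to 44780217. Levels are given as CPM, gene counts scaled to the size of each library with TMM factors, over the 22 diet libraries and the 12 transplant libraries separately. All 10 HSC markers averaged at least 1 CPM in every group, and their summed level was 4193 to 5853 CPM in diet libraries and 3288 to 4248 CPM in transplant libraries. Old diet libraries detected 42071 to 46646 genes and young ones 22209 to 33496. The third YCRRF library stood apart from the other libraries of its group, and values that rest on it are given with and without it.

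The order of levels among the genes was read per kilobase of exons, because longer genes collect more reads. The length counted all annotated exons of a gene together, 3970 bases for Sod1 and 10008 for Sod2. A gene whose main transcript is shorter than this reads too low, so the order depends on this choice. Txnip was the highest in OAL HSCs at 747 CPM per kb and ranked 31st of 54510 genes, and it ranked 28th in YAL HSCs at 733. Prdx1, a peroxiredoxin that reduces hydrogen peroxide, was next at 132 CPM per kb in OAL, followed by Cat, catalase, at 50.3 and Nfe2l2 at 39.4. Gclm, the modifier subunit of the glutamate cysteine ligase that starts glutathione synthesis, stood at 32.2 and its catalytic partner Gclc at 22.0. Sod1, the cytosolic superoxide dismutase, lay between these at 26.8, and Sod2, the mitochondrial form, at 10.6. The quinone reductase Nqo1 was at 10.4 and heme oxygenase Hmox1 at 8.59, the lowest of the 10 in OAL HSCs. Sod2, Nqo1 and Hmox1 were close neighbours, and in OCR HSCs Nqo1 was the lowest at 9.32, below Sod2 at 10.3 and Hmox1 at 10.4.

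Lifelong CR was compared with free feeding in old HSCs first. Of the 10 genes, 2, Txnip and Gclm, were lower in OCR than in OAL HSCs, and none of the 10 was higher past the test. The test was edgeR's quasi-likelihood test, with a gene called at a Benjamini-Hochberg adjusted p below 0.05 over all genes and a fold change above 1.2, the study's thresholds. The 2 calls of 10 stand beside 5.57% of all 27150 genes called, 689 higher and 822 lower, beside 3.03% called lower and beside 2.54% called higher.

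**Figure D1:**
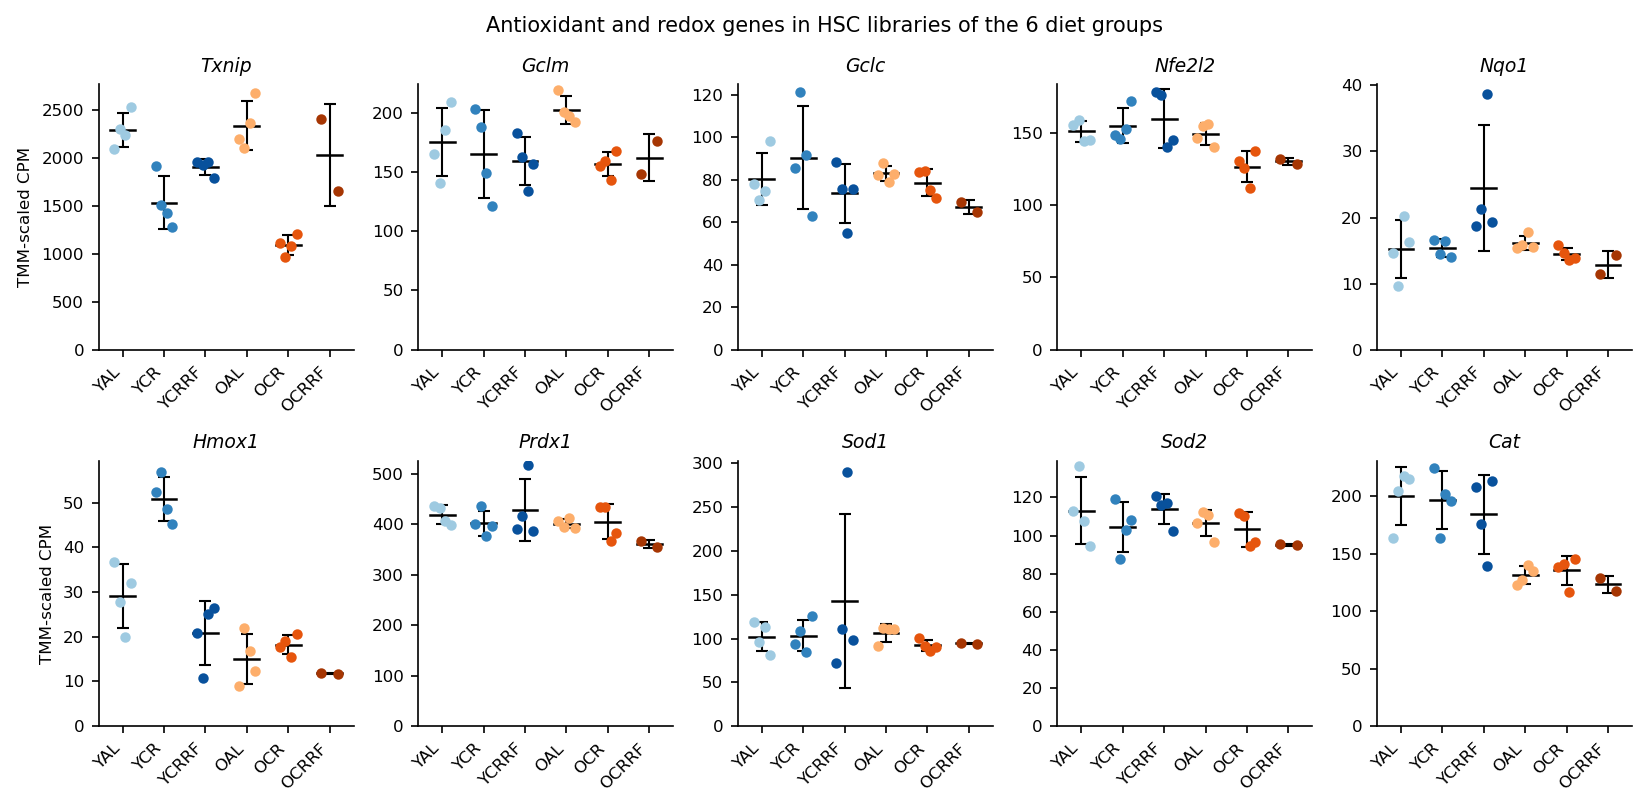
Level of each gene (y axis, TMM-scaled CPM, each panel from 0 on its own scale) in the 6 diet groups (x axis), with a point for each library, a bar for the mean and whiskers for the SD. Txnip lies between 963 and 1208 CPM in the 4 OCR libraries and at 1275 CPM or above in all others, and the YCRRF group has 1 library far above the rest in Sod1 and Nqo1.

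Txnip stood at 2191, 2099, 2364 and 2678 CPM in the OAL libraries and at 1114, 963, 1083 and 1208 CPM in the OCR libraries. The lowest OAL library was above the highest OCR library by a wide margin, and Txnip fell by 1.08 on the log2 scale (SE 0.090, edgeR adjusted p = 2.99e-09). The exact permutation test of the 4 against 4 libraries, two-sided, gave p = 0.029, the smallest such a design allows. In bulk libraries, fewer cells with high Txnip and less Txnip RNA per cell cannot be told apart. The gene lies at chr3:96557957-96561883 on mm10, and 606 of its 3123 exonic bases are shared with Gm15441, a gene on the opposite strand. The sources differ on the kit and do not give the strand setting of the counting, so how reads on these shared bases were assigned is not known here.

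Gclm was at 219, 201, 197 and 192 CPM in OAL and at 155, 160, 144 and 168 CPM in OCR libraries. These groups did not overlap, and Gclm fell by 0.35 on the log2 scale (SE 0.081, edgeR adjusted p = 0.00561). Its partner Gclc did not pass the test, with means of 82.9 ± 3.60 CPM in OAL and 78.5 ± 6.23 CPM in OCR (SD, n = 4 each), and the ranges overlapped. Gclm at chr3:122245557-122270732 shares 296 of its 6291 exonic bases with other annotated genes.

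For the regulator Nfe2l2, the libraries read 146, 155, 157 and 140.1 CPM in OAL and 131, 126, 112 and 138 CPM in OCR. The groups were separate by a narrow gap, and the log2 fold change of -0.22 did not pass the test (edgeR adjusted p = 0.136). Such separation without overlap was seen for 3 of the 10 genes and for 11.4% of all genes tested. Of the remaining targets, Hmox1 had a log2 fold change of 0.29 (95% interval -0.05 to 0.64, edgeR adjusted p = 0.454) with overlapping libraries. Nqo1 averaged 16.1 CPM in OAL and 14.5 CPM in OCR, and Prdx1 401 and 405 CPM, neither past the test. Sod1 showed -0.19 on the log2 scale (edgeR adjusted p = 0.257), with 1 OAL library at 91.5 CPM inside the OCR range. Sod2 and Cat overlapped between the groups, at 107 against 103 CPM and 131 against 136 CPM. Genes of the cell cycle moved in the same comparison, with a summed level over 12 genes of 458 to 520 CPM in OAL and 946 to 1331 CPM in OCR, and their part in the lower Txnip and Gclm was not tested. Of 12 erythroid markers 4 were lower and 1 higher in OCR, and of 10 lymphoid markers 2 were lower, with a summed lymphoid level of 40.3 to 265 CPM in OAL and 38.5 to 46.5 CPM in OCR, and their part was not tested either.

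**Figure D2:**
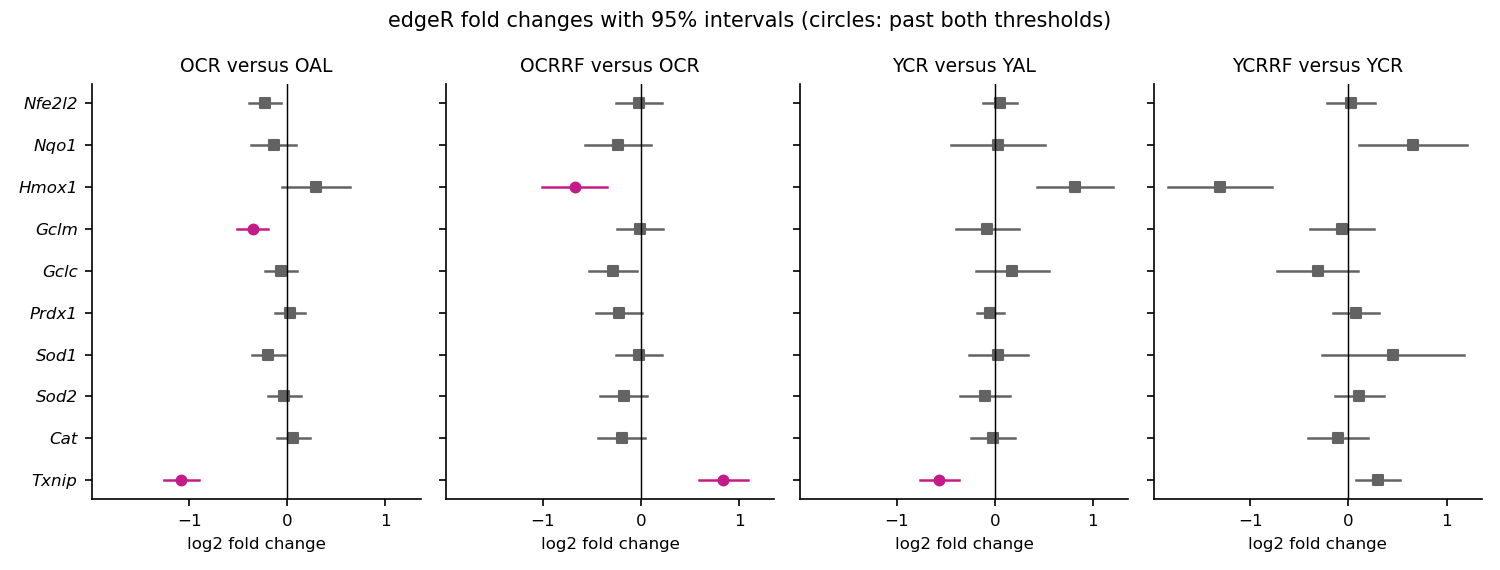
Log2 fold changes of the 10 genes (x axis, edgeR, whiskers are 95% intervals) in 4 diet comparisons, with magenta circles for genes past both thresholds and grey squares for the others. Txnip is at -1.08 in OCR versus OAL, 0.84 in OCRRF versus OCR and -0.57 in YCR versus YAL, and most other genes lie near 0.

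Lists of related genes show which parts of these systems moved beside the members. None of these lists holds any of the 10 genes, but the lists share genes with each other, so their counts are not independent. Gsr, for example, is counted among both Nrf2 targets and glutathione enzymes, and Srxn1 among both Nrf2 targets and thioredoxin genes. Among 20 other Nrf2 target enzymes, 4 were lower in OCR HSCs and 0 higher, led by Ephx1, an epoxide hydrolase, which fell by 1.05 on the log2 scale (edgeR adjusted p = 7.37e-07). Srxn1, the sulfiredoxin that repairs peroxiredoxins, fell by 0.51 and Gsr, glutathione reductase, fell by 0.34 on this scale. The list's median log2 fold change was -0.19, where that of all genes was 0.02. Such a median was not particular to Nrf2 targets. It was -0.21 for HSC markers, -0.16 for thioredoxin and peroxiredoxin genes and -0.15 for glutathione enzymes. For NADPH oxidase genes it was 0.02, and for heme and iron genes 0.07. Of 23 glutathione enzymes 4 were lower and 1 higher, with Gpx3, a secreted glutathione peroxidase, at -1.15 and Gpx1, the main cytosolic peroxidase, at 0.36 as the gene that was higher. Among 10 genes listed as regulators or relatives of Nrf2, 3 were lower, Bach2, Sqstm1 and Nfe2. This count ran from 1 to 3 when 1 library was left out. Keap1 was at 130.1 CPM in OAL and 123 CPM in OCR without passing the test. Of 19 thioredoxin and peroxiredoxin genes 2 were lower, Srxn1 and Sesn1. Thioredoxin itself, Txn1, the partner that TXNIP inhibits, did not pass the test (log2 fold change 0.18, edgeR adjusted p = 0.281).

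The list built around the glucose sensor MondoA and the arrestin family to which TXNIP belongs had 2 of 7 genes lower. Arrdc4, an arrestin family member known to be induced by MondoA, fell by 0.93 (edgeR adjusted p = 2.84e-08) and Arrdc3 fell by 0.83 on the log2 scale. Mlxip, which encodes MondoA, did not pass the test, at -0.11 (edgeR adjusted p = 0.563). Of 4 FoxO genes, Foxo1 was lower, by a log2 change of -0.76. Of 8 NADPH oxidase genes, Ncf4 was higher by 0.95 at a mean of 3.37 CPM in OCR, and of 10 heme and iron genes 0 passed the test, with 0 to 2 under the alternatives tried.

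Refeeding of old CR mice for 4 weeks was next compared with continued CR. Txnip was higher and Hmox1 lower in OCRRF than in OCR HSCs, and the other 8 genes did not pass the test. Over all 32577 genes, 3.41% were called, 226 higher (0.694%) and 884 lower (2.71%). Txnip read 2408 and 1650 CPM in the OCRRF libraries, both above all 4 OCR libraries, a log2 rise of 0.84 (SE 0.13, edgeR adjusted p = 2.99e-05). The 2 refed libraries differ from each other by more than the OCR libraries do, and without the first of them the log2 value was 0.50 and the edgeR adjusted p 0.276. Hmox1, which breaks down heme, was at 17.6, 19.0, 15.5 and 20.5 CPM in OCR and at 11.9 and 11.8 CPM in OCRRF. It fell by 0.68 on the log2 scale (SE 0.17, edgeR adjusted p = 0.0154), and this call was lost without either of the refed libraries (edgeR adjusted p = 0.165 and 0.268) or without the second OCR library (0.0562). Non-overlap with 4 against 2 libraries was common, at 28.3% of all genes, and was seen for 4 of the 10. The exact permutation test cannot go below 0.067 in this design and gave that value for both Txnip and Hmox1.

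Gclm did not pass the test with refeeding (log2 value -0.01, edgeR adjusted p = 0.98, and 0.13 with the scaling described next). Its 2 OCRRF libraries read 148 and 177 CPM, of which the first lay inside the OCR range and the second above it. Against OAL HSCs, Gclm was lower in OCRRF by a log2 value of -0.33 (edgeR adjusted p = 0.0355) and Gclc by -0.32 (0.0375), the 2 members called of 10, beside 4.14% of 31816 genes, 1.66% higher and 2.48% lower. These groups did not overlap for 6 of the 10 genes and for 38.6% of all genes. Gclc read 69.3 and 64.9 CPM in OCRRF and 79.0 to 87.7 CPM in OAL. Both calls were lost when any 1 of the 6 libraries was left out, and both were lost under TMM factors taken only over genes that average 5 CPM or more. Txnip in OCRRF did not differ from OAL past the test, with a log2 value of -0.21 (95% interval -0.43 to 0.01, edgeR adjusted p = 0.227). Of 20 other Nrf2 target enzymes 7 were lower in OCRRF than in OAL and 0 higher, beside the 2.48% of all genes called lower. The list was led by G6pdx at -0.35 on the log2 scale, and its count fell whichever library was left out. OCRRF versus OCR and OCRRF versus OAL share the 2 refed libraries, and OCR versus OAL shares its groups with each.

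Scaling changed the calls in both comparisons with OCRRF. The median log2 fold change over all genes was 0.11 in OCRRF versus OCR and 0.12 in OCRRF versus OAL, and it was 0.24 and 0.27 with TMM factors taken only over genes that average 5 CPM or more. Called genes were then 341 higher and 575 lower in OCRRF versus OCR, and 754 higher and 54 lower in OCRRF versus OAL, where the main scaling gave 528 and 788. In OCR versus OAL the same scaling gave 894 higher and 697 lower and the 2 members remained called, while Hmox1 lost its call in OCRRF versus OCR (-0.54, edgeR adjusted p = 0.0572). Of the other lists, OCRRF versus OCR had 1 glutathione enzyme lower, Gpx1 at -0.53, 1 heme and iron gene lower, Aco1 at -0.56, and 1 arrestin gene higher, Arrdc4 at 0.84 on the log2 scale (edgeR adjusted p = 5.05e-05). The summed cell cycle level was 414 to 449 CPM in OCRRF, below all OCR libraries. Of 12 erythroid markers 3 were higher, the hemoglobin genes Hbb-bs at 1.56, Hba-a1 at 1.66 and Hba-a2 at 1.64, and 2 were lower, and of 7 megakaryocyte markers 1 was higher and 3 were lower. The part of cell cycle, erythroid and megakaryocyte genes in the Txnip and Hmox1 values was not tested.

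Genes with a pattern most like that of Txnip were sought over the 22 diet libraries, after each library's age group mean was taken off, among 12327 genes that averaged 5 CPM or more. The closest was Gm15441, the gene on the opposite strand, with a Pearson r of 0.99, which shares exonic bases with Txnip as given above. Next came Klf10, a zinc finger transcription factor induced by TGF-beta, at 0.93, and Arrdc4 at 0.91. Klf10 fell by 1.01 on the log2 scale in OCR versus OAL (edgeR adjusted p = 2.17e-09) and rose by 0.72 in OCRRF versus OCR (0.00148). In YCR versus YAL neither Klf10 at -0.62 nor Arrdc4 at -0.44 passed the test (edgeR adjusted p = 0.157 and 0.173). For Gclm, the closest genes were Acadm, an enzyme of fatty acid oxidation, at 0.80, Mrps18a, a mitochondrial ribosomal protein, at 0.80, and Mfng, a Notch glycosyltransferase, at 0.79. Mfng was lower in OCR than in OAL HSCs (-0.38, edgeR adjusted p = 0.00112), and Acadm and Mrps18a did not pass the test. These correlations describe libraries that share the diet groups and were not tested.

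**Figure D3:**
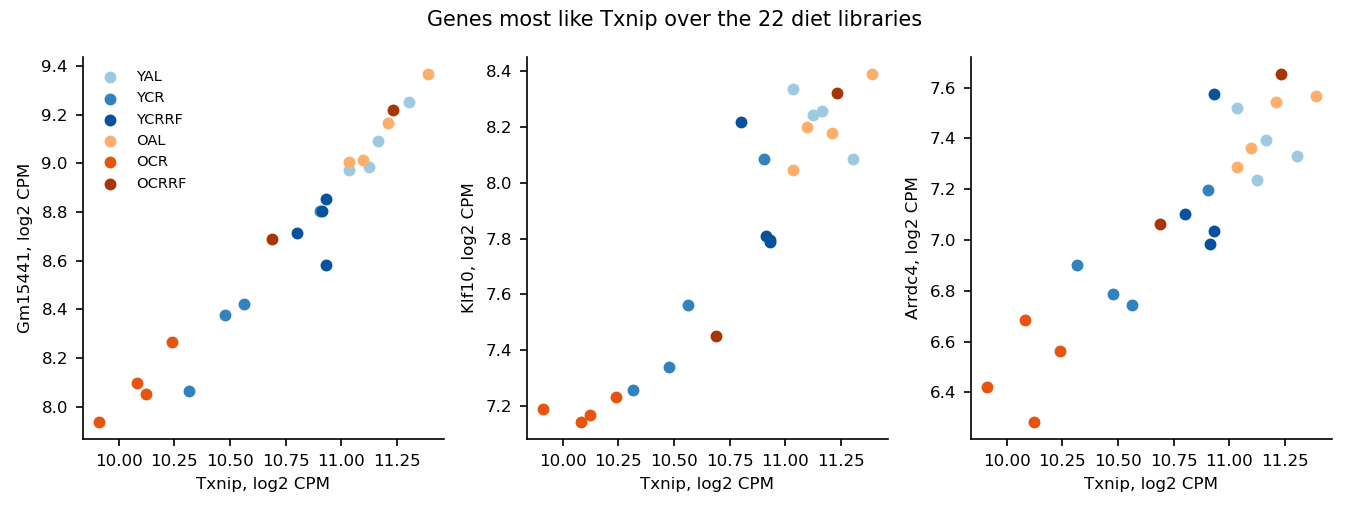
Log2 CPM of the 3 genes most like Txnip (y axes) against log2 CPM of Txnip (x axis) in the 22 diet libraries, with a point for each library coloured by group. OCR libraries lie at the lower left in each panel and OAL and YAL libraries at the upper right.

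Chromatin at the same genes was read from ATAC-seq, which counts cuts of a transposase in open chromatin, in 4 OCR and 2 OCRRF libraries with 15721335 to 19558148 reads in peaks. Each of the 10 genes had 1 peak within 1 kb of its start, and of these 10 only the Txnip peak was called in OCRRF versus OCR, higher in OCRRF. Calls needed an edgeR adjusted p under 0.05, a fold over 1.5 and an average log2 CPM over 1.5, which 0.221% of 123372 peaks met, 161 higher and 112 lower. The Txnip promoter peak, chr3:96557465-96558489, holds the promoter printed above. It read 27.5, 29.4, 30.8 and 30.3 CPM in OCR and 51.3 and 44.0 CPM in OCRRF libraries. The groups were far apart, with a log2 difference of 0.69 (SE 0.083, edgeR adjusted p = 7.26e-06). Without the first OCRRF library the log2 value was 0.58 (edgeR adjusted p = 0.0117), under the fold threshold.

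A second Txnip peak began 1480 bases from the start, inside the gene, and read 17.1, 16.6, 18.1 and 23.6 CPM in OCR and 42.9 and 28.6 CPM in OCRRF. Its log2 difference was 0.92 (SE 0.12, edgeR adjusted p = 1.25e-05), and without the first OCRRF library 0.60 (0.0695). Another peak, 4048 bases from the start and past the end of Txnip, was at 1.11 (edgeR adjusted p = 0.00185, DESeq2 adjusted p = 0.293) but at 14.2 CPM in 1 OCR library and 12.7 CPM in 1 OCRRF library, so the groups overlapped. The peak at 3406 bases did not pass the test (0.96, edgeR adjusted p = 0.0662). At the promoters of the other 9 genes the differences were small, from -0.09 at Nqo1 to 0.11 at Nfe2l2 on the log2 scale, and the Gclm peak stayed at 0.01 (edgeR adjusted p = 0.989). ATAC-seq of OAL HSCs was not analysed here.

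PU.1, a transcription factor of myeloid and stem cells, was mapped by ChIP-seq in 2 libraries each of OAL, OCR and OCRRF, with 2262 to 5464 peaks called by the authors per library. Of the 10 genes, 0 had a PU.1 peak within 1 kb of the start in any library, and within 10 kb only Txnip had any. There, a peak about 6.8 kb from the start, in an intron of Gm15441, was listed in both OCR and both OCRRF libraries, with a fold enrichment of 7.39 and 5.78 in OCR and of 7.45 and 7.03 in OCRRF. A peak inside Txnip, at chr3:96559426-96559647 in the first OCR library and overlapping the second ATAC peak, was listed in the first library of OCR (6.14) and of OCRRF (6.57). Neither OAL library listed a peak there. A peak list holds what passed a caller's threshold, so a missing peak gives no level, and with 2 libraries a group there was no test. The 200 bases around the summit of the peak inside Txnip, chr3:96559426-96559625 on the plus strand, are shown because they hold the PU.1 core GAGGAA on both strands, in capitals.
Txnip PU.1 peak: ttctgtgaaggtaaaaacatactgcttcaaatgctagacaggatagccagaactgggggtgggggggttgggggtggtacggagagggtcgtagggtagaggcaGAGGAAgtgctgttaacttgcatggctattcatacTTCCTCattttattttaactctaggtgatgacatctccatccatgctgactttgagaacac
The exact letters GAGGAA, searched for after the peaks were known, were in 61.3% to 64.9% of such windows in each library. They were in none of those at the 4 peaks near 6.8 kb. Other forms of a PU.1 site were not searched for, so those 4 peaks may hold one.

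**Figure D4:**
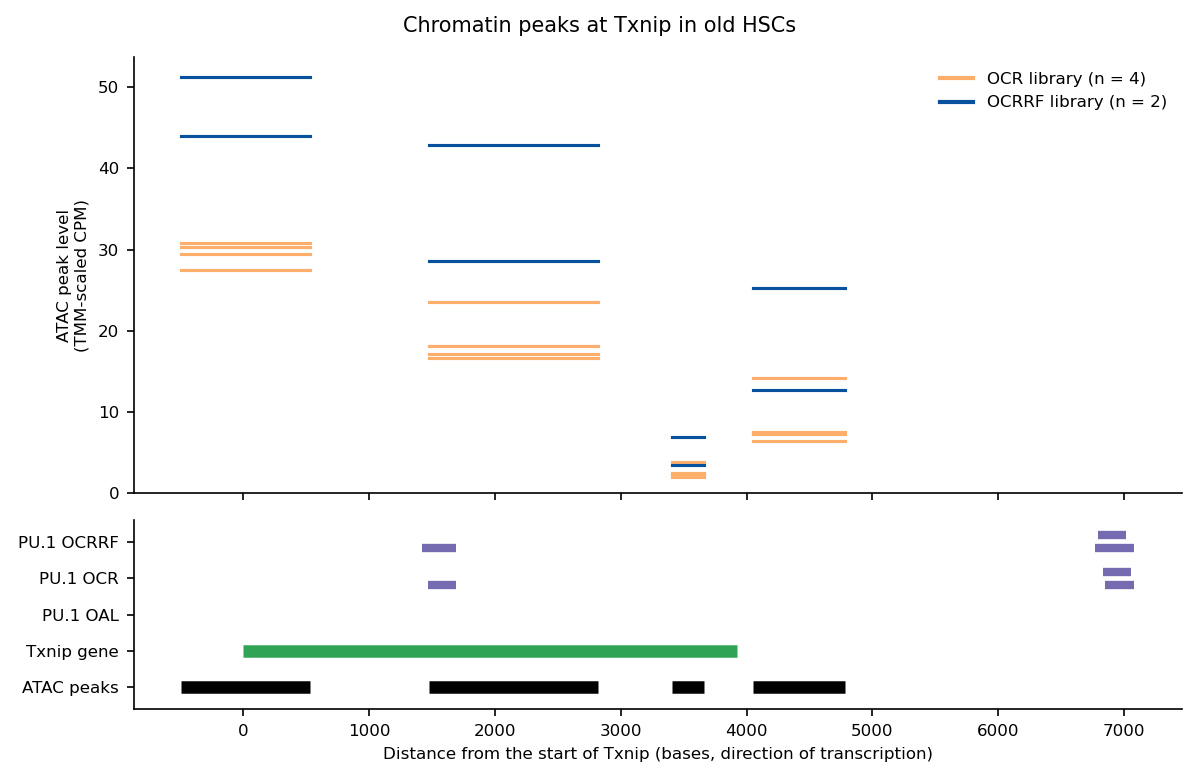
Top, level of the 4 ATAC peaks at Txnip (y axis, TMM-scaled CPM) in 4 OCR (orange) and 2 OCRRF (blue) libraries, each line spanning its peak. Bottom, position of ATAC peaks, the Txnip gene and the PU.1 peaks listed in each library, against the distance from the Txnip start (x axis, bases). The promoter peak is at 27.5 to 30.8 CPM in OCR and 44.0 to 51.3 CPM in OCRRF, and the OAL row holds no PU.1 peak.

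Histone marks of OCR HSCs placed the 10 promoters on a scale of their own. H3K4me3, a mark of active promoters, was given as a mean signal per base in the 750 bases after the start, and Txnip stood at 50.9 and 49.7 in the 2 libraries, at the 99.2nd and 99.3rd percentile of 30009 windows. Nfe2l2 was at 49.2 and 42.1, and Sod1 at 38.3 and 42.6. Nqo1 at 7.05 and 7.65 and Hmox1 at 8.54 and 5.91 were the lowest of the 10, between the 46.5th and 49.2nd percentile. H3K27me3, a mark of repressed promoters, was given over a longer window after the start, chr3:96557957-96559956 at Txnip. It was low at Txnip, at the 13.5th and 8.92nd percentile, and higher at Hmox1, at the 59.4th and 58.5th. Histone libraries of OAL HSCs were not analysed here, and these values carry no test.

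Short-term CR was compared with free feeding in young HSCs. Txnip was lower in YCR HSCs, at the edge of the threshold, and Hmox1 was higher in every YCR library without passing the test. Of all 18680 genes 0.364% were called, 17 higher (0.091%) and 51 lower (0.273%), and of the 10 only Txnip. Txnip read 2094, 2298, 2234 and 2526 CPM in YAL and 1918, 1511, 1427 and 1275 CPM in YCR. The groups did not overlap, and Txnip fell by 0.57 on the log2 scale (SE 0.10, edgeR adjusted p = 0.0474). The call was lost when any library but the first YCR one was left out (edgeR adjusted p from 0.0848 to 0.178), and with library sizes from the genes past the filter (0.0509). Hmox1 was at 36.7, 27.9, 19.9 and 32.0 CPM in YAL and at 52.5, 56.9, 48.6 and 45.3 CPM in YCR. All 4 YCR libraries were above all YAL libraries, as for 1 other of the 10 (Txnip, lower) and 6.32% of all genes in either direction. The log2 fold change of 0.82 had an edgeR adjusted p of 0.148, while DESeq2 called it at an adjusted p of 0.0035 and edgeR on unfiltered genes at 0.00385.

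The other 8 genes overlapped between YAL and YCR. Gclm in particular spread from 121 to 203 CPM in YCR and from 141 to 209 CPM in YAL, a range wider than in the old groups. Of the related genes, Prdx4, a peroxiredoxin of the endoplasmic reticulum, was lower in YCR HSCs (-0.68, edgeR adjusted p = 0.0408), a call lost whichever library was left out, and no gene of the other redox lists was called. Lymphoid markers summed to 54.1 to 1330 CPM in YCR and to 74.0 to 131 CPM in YAL, and cell cycle genes to 993 to 1138 and 752 to 882 CPM. Their part in the Txnip and Hmox1 values was not tested.

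The old and young responses to CR were set against each other in 1 fit of the 16 libraries. None of the 10 genes was called for the difference between responses, where 0.0318% of 28328 genes were, 0.0106% higher and 0.0212% lower. Txnip had the smallest p among them, with an old minus young difference of -0.51 (SE 0.15, unadjusted p = 0.00217, edgeR adjusted p = 0.318). For Hmox1 the difference was -0.53 (edgeR adjusted p = 0.706) and for Nfe2l2 -0.28 (0.508). None of the 10 was called under any alternative, where the adjusted p of Txnip, by edgeR or DESeq2, ran from 0.119 to 0.603. Age, length of CR and library set cannot be told apart in this contrast.

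Refeeding of young mice gave no call among the 10 genes. YCRRF versus YCR had 2 genes called of 19535, or 0.0102%, and YCRRF versus YAL had 0 of 19334, with 714 at an unadjusted p below 0.05. DESeq2 gave 1 of the 10 in YCRRF versus YCR and 0 in YCRRF versus YAL. Hmox1 read 20.8, 10.8, 25.2 and 26.5 CPM in YCRRF libraries. These were all below the 4 YCR libraries, and 5.52% of all genes did not overlap in this comparison. The difference was -1.31 on the log2 scale (SE 0.27, edgeR adjusted p = 0.214, DESeq2 adjusted p = 0.00138). Without the third YCRRF library the value was -1.42 (edgeR adjusted p = 0.116). In the same comparison all 8 neutrophil markers tested had a log2 value above 0 (median 3.27), all 7 lymphoid markers one below 0 (median -2.68) and all 12 cell cycle genes one below 0 (median -0.99), with 0 of them called, and their part in the Hmox1 values was not tested. Hmox1 thus had its highest levels under short-term CR among all diet groups, in each of the 4 libraries.

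Txnip was at 1953, 1927, 1954 and 1785 CPM in YCRRF. These libraries lay above 3 of the 4 YCR libraries and below all YAL libraries (no overlap, as for 3.22% of all genes), with log2 values of 0.30 against YCR (edgeR adjusted p = 0.565) and -0.26 against YAL (0.995). Nqo1 was at 18.7, 21.2, 38.7 and 19.3 CPM in YCRRF and at 14.0 to 16.6 CPM in YCR. All YCRRF libraries were higher, and the log2 value of 0.66 became 0.35 without the third library (edgeR adjusted p = 0.645 and 0.686). Sod1 was at 290.3 CPM in that library and at 71.7 to 111 CPM in the other 3, and Prdx1 was at 517 CPM there against 387 to 417 CPM.

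Age was compared in freely fed mice, OAL versus YAL. Cat was lower in old HSCs with no overlap, Hmox1 passed the thresholds with overlapping libraries, and Txnip did not pass the test. Both thresholds were passed by 14.8% of 23525 genes, 1620 higher (6.89%) and 1866 lower (7.93%), so 2 of 10 is close to the background, and 27.5% of all genes did not overlap. Cat read 164, 205, 218 and 215 CPM in YAL and 123, 127, 140.3 and 135 CPM in OAL. It fell by 0.59 on the log2 scale (SE 0.095, edgeR adjusted p = 0.00359). Hmox1 was at 8.96, 22.0, 16.9 and 12.3 CPM in OAL, at -0.94 on the log2 scale (SE 0.27, edgeR adjusted p = 0.0402), and the call was lost under 3 of the other scalings or filters and without any 1 of 5 libraries. For Txnip the log2 difference was 0.04 (95% interval -0.12 to 0.21, edgeR adjusted p = 0.789). Cat did not pass the test between CR and free feeding at either age.

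Old and young libraries differ in the number of genes detected, as given above, so age and library set cannot be told apart. TMM factors taken only over genes that average 5 CPM or more moved the median of all genes in OAL versus YAL from 0.05 to 0.16 on the log2 scale and gave 1870 higher and 784 lower calls, and Cat kept its call, while Nfe2l2, Prdx1 and Sod2 changed sign. With DESeq2's size factors there were 1687 higher and 1328 lower. In the redox lists, 5 of 8 NADPH oxidase genes, which phagocytes use, were lower in OAL, led by Rac2 at -0.63, Cyba at -0.91 and Ncf1 at -1.79. Of 8 neutrophil markers tested 7 had a log2 value below 0, with a median of -2.32 and 1 called in each direction, and their summed level was 134 to 806 CPM in YAL and 251 to 379 CPM in OAL. Cell cycle genes were lower for 8 of 12, erythroid markers lower for 4 and higher for 1, and lymphoid markers lower for 3 and higher for 3, and the part of these cells in the age differences was not tested. Of 19 thioredoxin and peroxiredoxin genes 5 were lower, led by Prdx4 at -0.51, a count that ran from 2 to 8 when 1 library was left out. Of 23 glutathione enzymes 6 were lower and 2 higher, with Gpx8 at 2.73. Of 20 other Nrf2 target enzymes 5 were lower, led by Tkt at -0.64, and 1 was higher. The 6 calls became 3 to 8 when 1 library was left out. Of 3 FoxO genes tested, Foxo3 was lower, at -0.65.

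Knockdown was checked first in the transplanted cells. Kdr was at 6.04 and 6.07 CPM with the GFP scramble and at 1.93, 2.21, 3.28 and 2.03 CPM with the Kdr shRNA, and at 3.97 and 4.62 CPM with the double scramble and 1.24, 0.555, 1.60 and 1.35 CPM in the double knockdown. Every knockdown library was below its scrambles, while the edgeR adjusted p was 0.247 and 0.272 at these low levels. Bmpr1a was at 5.21 and 4.43 CPM with the double scramble and at 4.44, 0.656, 2.22 and 0.595 CPM in the double knockdown, where the first library reached the scrambles.

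**Figure D5:**
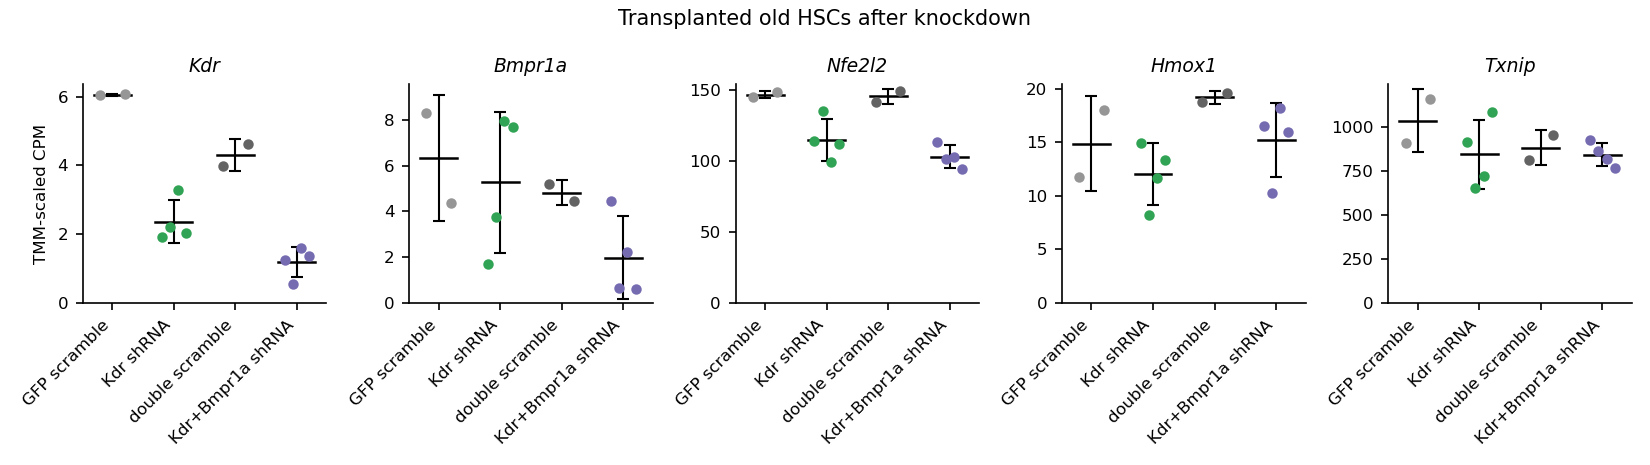
Level (y axis, TMM-scaled CPM, from 0) of the targeted genes Kdr and Bmpr1a and of Nfe2l2, Hmox1 and Txnip in transplanted HSCs with each shRNA (x axis), with a point for each library, a bar for the mean and whiskers for the SD. Nfe2l2 is at 141 to 149 CPM in the 4 scramble libraries and at 93.9 to 135 CPM in the 8 knockdown libraries.

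Nfe2l2 was the member that stood lowest against its scrambles in both knockdowns, and none of the 10 was called. The Kdr knockdown called 0.0149% of 20098 genes and the double knockdown 0.00498% of 20072, or 3 genes and 1 gene. At the unadjusted threshold that the study used for the Kdr knockdown, with the same fold, these shares were 6.76% and 6.71%, and of the 10 only Nfe2l2 passed in each. Nfe2l2 read 145 and 148 CPM with the GFP scramble and 114, 135, 98.9 and 111 CPM with the Kdr shRNA. The difference was -0.35 on the log2 scale (SE 0.11, unadjusted p = 0.0119, edgeR adjusted p = 0.411). With the double scramble it was at 141 and 149 CPM and in the double knockdown at 113, 101, 103 and 93.9 CPM, a log2 value of -0.50 (SE 0.080, unadjusted p = 0.000261, edgeR adjusted p = 0.214, DESeq2 adjusted p = 2.99e-05). All knockdown libraries were below both of their scrambles, and 21.9% and 21.3% of all genes did not overlap in these comparisons. The exact permutation test cannot go below 0.067 with 4 against 2 libraries.

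Txnip in transplanted cells was at 910.4 and 1164 CPM with the GFP scramble, 916, 656, 724 and 1089 CPM with the Kdr shRNA, 814 and 955 CPM with the double scramble, and 929, 863, 820.3 and 769 CPM in the double knockdown. The groups overlapped, with log2 values of -0.29 (edgeR adjusted p = 0.676) and -0.06 (0.877). Among the Nrf2 targets, Hmox1 had a log2 value of -0.33 in the double knockdown (edgeR adjusted p = 0.672), Gclm 0.19 in the Kdr knockdown (0.654) and Nqo1 0.18 in the double knockdown (0.802). The double minus the single effect called 0 of 21250 genes, with 760 at an unadjusted p below 0.05, and was -0.15 for Nfe2l2 and 0.23 for Txnip. Neutrophil markers summed to 447 to 4718 CPM over these libraries, a wide range within groups, and their part in the values was not tested. The related gene lists had 0 calls in either knockdown by edgeR.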

How the data were processed

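RNA-seq files held raw counts per gene, which per the methods the authors made by trimming reads, STAR alignment (mm10, GENCODE M22 genes) and featureCounts. The methods name a cDNA kit that does not mark strand, whereas the labels name a total RNA kit, and the strand setting of the counting was not given in the sources used here. ATAC files held counts per merged MACS peak as deposited. PU.1 peak lists from the authors gave, per library, a fold enrichment, a score and -log10 p and q values from MACS2. Histone files gave a deposited signal value for each promoter window. Counts were tested with edgeR 4.0.16 in R 4.3.3 (filterByExpr, TMM, quasi-likelihood), fitting the compared groups only. DESeq2 1.42.0, other scalings and filters, left-out libraries and the replicate number as a block were alternatives. Permutation tests were enumerated in R, sequences and peak lists were read in Python 3.11.15, and scripts were tested on simulated data. A fitted SE is the log2 fold change divided by the root of F, and 95% intervals are 1.96 SE on each side. Exons came from GENCODE M21 and promoters from RefSeq on mm10. All 10 genes are named, with at most 3 called genes a list in order of p and the 3 genes most like each member called in OCR versus OAL. Gpx1, Keap1, Txn1 and Mlxip were named after their values were seen. The members and lists were chosen with earlier results of these data known. Chromatin of OAL HSCs was used for PU.1 alone.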

Additional observations from a re-analysis of the deposited data

Results flagged for a closer look

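In groups of 4 libraries, a library was marked where its gap to the nearest other exceeded Dixon's 95% critical share of the group's range, which chance does in about 1 of 20 groups. The rule was applied to each of the 10 genes in every group of 4 libraries, so a few marks are expected by chance alone. Nqo1 stood at 38.7 CPM in the third YCRRF library, where the other 3 were between 18.7 and 21.2 CPM. Sod1 was at 91.5 CPM in the first OAL library, below the other 3 at 110.8 to 112 CPM. Txnip was at 1785 CPM in the fourth YCRRF library, below the other 3 at 1927 to 1954 CPM. That library had the fewest counts of all RNA libraries, 11102898, with 22209 genes detected, and the part of depth was not tested.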

How the results depend on the processing

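In OCR versus OAL, 2 members were called under all 16 alternatives. In YCR versus YAL, where 1 was called, DESeq2 gave 2, no filter on low counts 2, and library sizes from the genes past the filter 0. In OCRRF versus OCR, with 2, TMM factors over genes averaging 5 CPM or more gave 1, and Gclm turned to a log2 value of 0.13 there and to 0.036 with at least 10 counts in every library. In OCRRF versus OAL, with 2, DESeq2 gave 4 and the same TMM factors 0. In YCRRF versus YCR, with 0, DESeq2 and no filter gave 1 each. In OAL versus YAL, with 2, DESeq2's size factors, the same TMM factors and the minimum of 10 counts gave 1 each. In both knockdowns, with 0, the unadjusted p gave 1, and in the double knockdown DESeq2 and no filter gave 1 each, while Txnip was at 0.024 with the Bmpr1a shRNA1 libraries alone. Within 5 kb, 3 ATAC peaks were called instead of 1, and within 10 kb 1 member had a PU.1 peak instead of 0. The causes were not tested.

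Replicate numbers were not used as pairs in the main test. Correlations of same-numbered libraries ran from -0.14 to 0.15. Libraries of unlike number were not set beside them, so these values cannot show whether the samples were paired. Over all genes, the replicate number as a block gave 3437 calls in OCRRF versus OCR, where the main test gave 1110. In OAL versus YAL it gave 1651, where the main test gave 3486. With the replicate number as a block, members called were 0 in YCR versus YAL, 4 in OCRRF versus OCR and 1 in OAL versus YAL.

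With 1 library left out at a time, members called ran from 0 to 1 in YCR versus YAL, 0 to 2 in OCRRF versus OCR, 0 to 0 in OCRRF versus OAL, 1 to 2 in OAL versus YAL and 0 to 1 for ATAC promoter peaks. Gclm changed sign in YCR versus YAL (-0.18 to 0.054) and OCRRF versus OCR (-0.082 to 0.075), and Txnip in OCRRF versus OAL (-0.53 to 0.030), OAL versus YAL (-0.033 to 0.088) and the double knockdown (-0.18 to 0.064). Where a scramble or OCRRF group was left with 1 library, that library was assumed to vary like the other groups. With 2 libraries, the OCRRF and scramble groups limit the precision of every comparison that uses them.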
